A study of Mus musculus with 8 samples.

Results

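The 10 genes described here encode proteins that neutrophils make late in their development: S100a8, S100a9, Ngp, Ltf, Camp, Lcn2, Chil3, Fcnb, Mmp8 and Mmp9. They were taken from the deposited count table by symbol, through the Ensembl identifiers of GENCODE vM21, and all 10 of the 10 were found among its 16119 genes. All of them passed the filter on low counts, and the lowest count of any member was 170, for Fcnb in HFD replicate 4. The table holds 8 libraries of RNA from DC-restricted progenitors (CDPs), bone marrow (BM) cells that give rise to dendritic cells (DCs). The mice were males, C57BL/6 in the labels and C57BL/6J in the methods, which give an age of 16 weeks at purchase for both diets. They were on a high-fat diet (HFD, 60 kcal% fat) for 16 weeks, labelled DIO for diet-induced obesity, or were controls (CF, 10 kcal% fat, labelled DIO-Control). A number of weeks on the diet is recorded for HFD alone. Each diet had 4 libraries, and both diets shared strain, sex and sort: 50000 cells per library, negative for lineage markers, intermediate for c-Kit, low for Sca1 and positive for CD115 and Flt3. The study compared the diets to learn how diet-induced obesity alters these progenitors, and the replicates were isolated in parallel, but the labels do not say which animals went into which library, so the p values measure the spread between these samples.

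Neutrophils fill their granules in waves as they mature in the BM. Primary granules, with myeloperoxidase and elastase, form first in promyelocytes, secondary granules, with lactoferrin, cathelicidin and lipocalin 2, form in myelocytes and metamyelocytes, and gelatinase granules form last. Transcription of the later waves follows the factor C/EBP epsilon, while S100A8 and S100A9 accumulate in the cytosol until they are among the most abundant proteins of the cell. CDPs belong to the DC branch, which is not the lineage in which these granules form.

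Between 28203651 and 38969160 reads were counted per HFD library and between 32575696 and 48409689 per CF library. The markers of the sort were found in every library. Flt3, the receptor whose ligand drives DC development, had 88.8 CPM (counts scaled to the library sizes after TMM normalization) in HFD replicate 1 and 227 to 378 CPM in the other 7. Kit, the stem cell factor receptor, had 45.6 CPM in HFD replicate 1 and 34.2 to 53.6 CPM in the other 7, and Csf1r, which encodes CD115, 93.6 CPM and 79.4 to 133 CPM. HFD replicate 1 stood apart: the summed level of 8 DC progenitor and sort markers was 790.5 CPM in it, against 1426 to 1501 CPM in the other HFD libraries and 1208 to 1331 CPM in CF. The 10 neutrophil genes were highest in that same library. CF replicate 1 differed in its counts: 28.3% of them were in protein-coding genes, against 33.9% to 42.0% in the other 7 libraries, and it had the most reads and the lowest TMM factor. The part of these differences in counts in the results was not tested. Fold changes of the members without CF replicate 1 are given after those of all libraries, and values without HFD replicate 1 are given for the members and for each list of related genes.

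Together, the members took 4.82% of the protein-coding counts in HFD replicate 1, 0.946% in replicate 2, 0.346% in replicate 3 and 0.253% in replicate 4. In CF they took 0.531% in replicate 1, 1.64% in replicate 2, 1.56% in replicate 3 and 1.62% in replicate 4. The means were 1.59% ± 2.17 (SD, n = 4) in HFD and 1.34% ± 0.539 (SD, n = 4) in CF, and the medians lay the other way round, at 0.646% and 1.59%. One HFD library was thus above all CF libraries, CF replicate 1 lay among the HFD libraries, and the diets overlapped. In bulk RNA, fewer cells of a type and less RNA per cell cannot be told apart, so these shares do not say how many cells carried the transcripts.

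S100a8 and S100a9 encode the subunits of calprotectin, a calcium-binding alarmin that also withholds zinc and manganese from microbes. S100a8 (ENSMUSG00000056054, chr3:90668978-90670035 of GRCm38, plus strand) had 5155, 901, 328 and 245 CPM in HFD replicates 1 to 4 and 539, 1778, 1635 and 1542 CPM in CF replicates 1 to 4. S100a9 (ENSMUSG00000056071, chr3:90692632-90695721, minus strand) had 5110.5, 939.9, 369 and 283 CPM in HFD and 496, 1915, 1627 and 1588 CPM in CF. Both were highest in HFD replicate 1 and lowest in HFD replicates 3 and 4, with CF replicates 2 to 4 close together and CF replicate 1 below them.

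Ngp encodes neutrophilic granule protein, a cystatin-related protein of secondary granules. Ngp (ENSMUSG00000032484, chr9:110419747-110423012, plus strand) had 4383, 818, 248 and 180.0 CPM in HFD and 388, 1303, 1219.6 and 1218 CPM in CF. CF replicates 2 to 4 differed by only 1.07-fold in Ngp, while the HFD libraries spanned 24.4-fold. Ltf, which encodes the iron-binding protein lactoferrin (ENSMUSG00000032496, chr9:111019271-111042767, plus strand), had 1707, 319.7, 96.6 and 68.4 CPM in HFD and 143, 427, 435 and 508 CPM in CF. Camp, which encodes the precursor of the antimicrobial peptide cathelicidin (ENSMUSG00000038357, chr9:109847379-109849617, minus strand), had 731, 129.6, 37.2 and 33.3 CPM in HFD and 65.5, 197, 166 and 163 CPM in CF. Lcn2, which encodes lipocalin 2, a protein that binds bacterial siderophores (ENSMUSG00000026822, chr2:32384633-32388252, minus strand), had 747, 123, 45.7 and 29.9 CPM in HFD and 69.9, 218, 230.4 and 215 CPM in CF. In all 3 of these genes the order was the same at its ends, with HFD replicate 1 on top, HFD replicates 4 and 3 at the bottom and CF replicate 1 next above them.

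Chil3 encodes the chitinase-like lectin Ym1, and Fcnb encodes ficolin B, a sugar-binding protein of the lectin complement pathway. Chil3 (ENSMUSG00000040809, chr3:106147554-106167564, minus strand) had 938, 154, 42.8 and 35.3 CPM in HFD and 64.1, 218, 202 and 182 CPM in CF. Its counts are uncertain, because 14.2% of the 75-base stretches of its longest transcript also occur in Chil4 or Gm6522, while 0 stretches of the other 9 members occur in another gene. Fcnb (ENSMUSG00000026835, chr2:28076378-28084885, minus strand) was the lowest member, with 85.3, 17.3, 4.75 and 4.13 CPM in HFD and 5.35, 23.2, 20.8 and 14.03 CPM in CF. Fcnb was the only member in which an HFD library other than replicate 1, namely replicate 2, exceeded one of CF replicates 2 to 4.

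Mmp8 and Mmp9 encode neutrophil collagenase and gelatinase B, proteases that neutrophils store in secondary and gelatinase granules. Mmp8 (ENSMUSG00000005800, chr9:7558456-7568485, plus strand) had 447, 55.7, 24.8 and 19.4 CPM in HFD and 45.8, 122, 132 and 138 CPM in CF. Mmp9 (ENSMUSG00000017737, chr2:164940780-164955850, plus strand) had 532, 59.9, 40.0 and 33.0 CPM in HFD and 63.5, 169.9, 207 and 184 CPM in CF. In Mmp9, and in no other member, HFD replicates 2 to 4 were all below every CF library. No exon of the 10 genes overlaps an exon of another annotated gene.

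**Figure D1:**
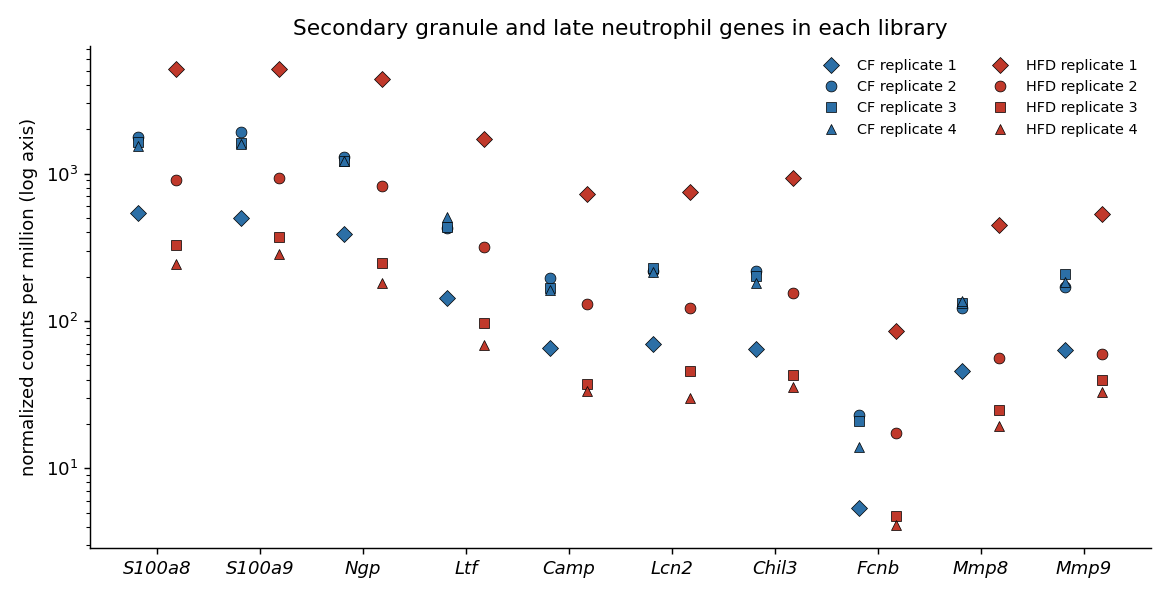
Level of each member in each library, in CPM after TMM normalization on a log axis, with CF libraries in blue, HFD libraries in red and a marker shape for each replicate number. HFD replicate 1 lies on top for all 10 genes, CF replicate 1 is the lowest CF library for all 10, and HFD replicates 3 and 4 lie at the bottom.

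Per kb of exon, the scale on which genes can be set against each other, S100a9 and S100a8 made up most of the members' RNA. S100a9 held 44.0% ± 2.03 (SD over 8 libraries) of the members' summed CPM per kb and S100a8 31.8% ± 1.21. Ngp followed with 14.1% ± 1.05 and Camp with 3.54% ± 0.433. Ltf, at 1.89% ± 0.229, and Chil3, at 1.87% ± 0.303, did not differ beyond their spread. Lcn2 held 1.13% ± 0.0847, Mmp8 and Mmp9 did not differ beyond their spread at 0.716% ± 0.0996 and 0.692% ± 0.141, and Fcnb held 0.229% ± 0.0510. Among protein-coding genes ordered by mean CPM per kb in CF, S100a9 stood at place 3, S100a8 at place 6 and Ngp at place 16, so the highest of these transcripts ranked near the top of the CDP libraries.

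The members shared the ends of the order of the libraries. All 10 were highest in HFD replicate 1, against 26.5% of all genes tested, and all 10 were lowest in HFD replicate 4, against 17.7% of all genes. CF replicate 1 was the lowest CF library for 10 of 10, and CF replicates 2 to 4 were all above HFD replicates 2 to 4 for 9 of 10. The ranks of all 8 libraries were identical in S100a8, S100a9, Ngp, Camp and Chil3. Pearson's r of log2 CPM over the 8 libraries was between 0.913 and 0.999 for the 45 pairs of members, with a median of 0.989. The lowest r was between Fcnb and Mmp9 and the highest between S100a8 and Lcn2. Without HFD replicate 1 r was between 0.834 and 0.998, with a median of 0.983, over 7 libraries. These points share their libraries and depths, so r describes how closely the genes moved together here.

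The spread within a diet was large for the members. From the lowest to the highest library they ranged 16.2-fold (Mmp9) to 26.6-fold (Chil3), with a median of 22.5-fold against 1.95-fold over all genes tested. A range over 10-fold was seen in 10 of 10 members and in 6.86% of all genes. The SD of log2 CPM within a diet, pooled over both diets, had a median of 1.56 in the members and 0.31 in all genes, and each member lay between percentiles 97.1 and 98.4 of all genes. Without HFD replicate 1 the members' median SD was 0.91 and their range 5.61-fold to 7.69-fold, with the lowest member at percentile 89.3. Without HFD replicate 1 and CF replicate 1 together the median SD was 0.76 and the members lay between percentiles 63.5 (Mmp9) and 95.2 (Fcnb), with a median of 93.4.

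**Figure D2:**
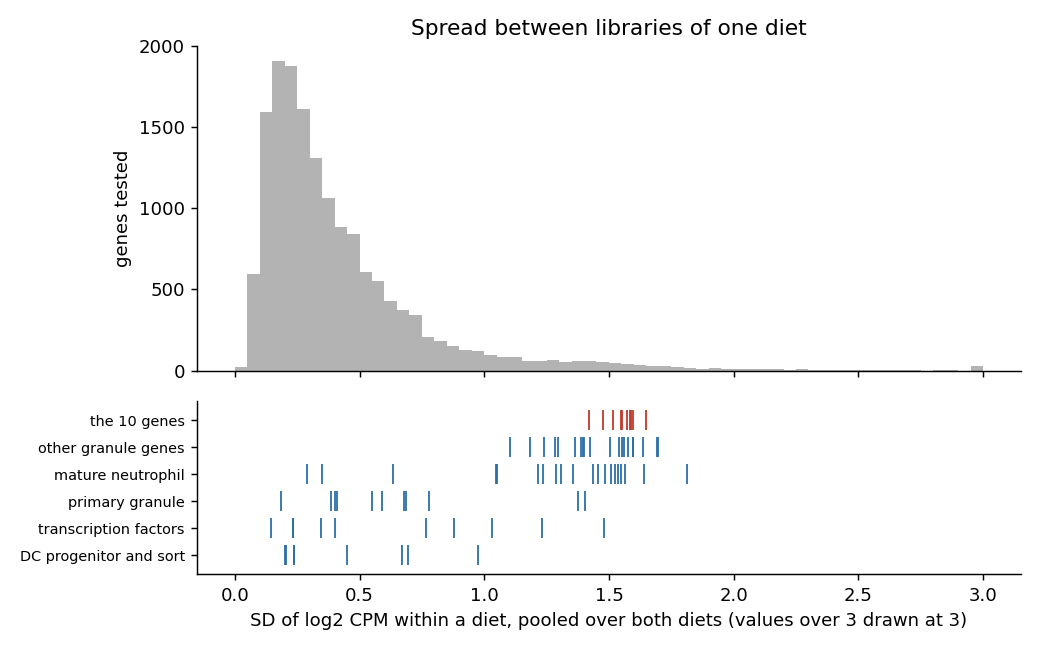
Upper panel, a histogram of the SD of log2 CPM between libraries of a diet, pooled over both diets, for all genes tested; lower panel, the same measure with 1 tick per gene for the members and for lists of related genes. The ticks of the members lie between 1.42 and 1.65, in the right tail of all genes, whose median is 0.31.

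The promoters of the members were searched for letters that the neutrophil factors are known to prefer, since the genes moved together. RefSeq promoter windows of 300 bases on GRCm38.p6 (250 before and 50 after the start) were found for 9 members, all but Mmp9. The C/EBP motif TTNNGCAA, read on both strands, occurred in 6 of 9 members and in 10.8% of 32851 promoters of the same length. GAGGAAG, a motif of PU.1 and other ETS factors, occurred in 3 of 9 against 13.6%, and AAATCNC, a core of the GFI1 motif, in 2 of 9 against 11.7%. No match of one motif overlapped a match of another, and a match is a description of letters, not a bound site. The windows of 30 bases around each C/EBP match are shown because they are what these 6 promoters share, 5′ to 3′ along the gene's strand, with the matched letters in capitals. Ngp and Fcnb hold more than one match each.
S100a9: ggtaggctgtcTTGCTTAAgatttgggcgg
Ngp, upstream match: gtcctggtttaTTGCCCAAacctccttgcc
Ngp, match near the start: accggcagttcTTGGGCAAggcagtctcaa
Ltf: aggcaggcctaTTGGGCAAtagggtggggc
Lcn2: agcccttcctgTTGCTCAAccttgcacagt
Fcnb, upstream match: caaggcaggccTTTTGCAAacagaggtgcc
Fcnb, nearer match: ttttaggtctcTTGTGCAAccagaggcctc
Mmp8: ttaggcagaagTTGCTCAAgatgtagcttt

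The first matched letter lay 236 bases before the RefSeq start in S100a9 (window chr3:90695939-90695968, minus strand), 75 bases before it in Ltf (chr9:111019206-111019235, plus strand) and 216 bases before it in Lcn2 (chr2:32387937-32387966, minus strand). In Ngp the matches lay 138 and 11 bases before the start (chr9:110419659-110419688 and chr9:110419786-110419815, plus strand). In Fcnb they lay 235 and 123 bases before it (chr2:28085095-28085124 and chr2:28084983-28085012, minus strand), and in Mmp8 19 bases before it (chr9:7558399-7558428, plus strand). The Lcn2 window and the second Ngp window lie inside the gene spans of GENCODE, which start further upstream. In S100a8, Camp and Chil3 these letters are not in the window. The matched octamer was identical in Ngp, near the start, and Ltf, and identical in Lcn2 and Mmp8. S100a9 and S100a8, which neighbour each other on chromosome 3 and were among the closest pairs in level, differ in that only S100a9 has the C/EBP letters and only S100a8 of the pair has those of the ETS motif.

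Relative to S100a8 in the same library, most members kept nearly the same ratio although their levels ranged over 16.2-fold or more. The ratio of Lcn2 to S100a8 ranged over 1.19-fold among the 8 libraries, that of S100a9 over 1.25-fold, that of Ngp over 1.26-fold, and those of Camp, Mmp8 and Ltf over 1.42-fold, 1.44-fold and 1.48-fold. Chil3, Mmp9 and Fcnb kept their ratio least closely, with 1.54-fold, 2.02-fold and 2.11-fold. The steady genes are thus spread over calprotectin, secondary granule proteins and a collagenase, and the level of the whole group differed between libraries far more than its composition.

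The ratios of Chil3 and Fcnb did not overlap between the diets. Chil3 stood at 18.2%, 17.1%, 13.1% and 14.4% of S100a8 in HFD replicates 1 to 4 and at 11.9%, 12.2%, 12.3% and 11.8% in CF replicates 1 to 4. Fcnb stood at 1.65%, 1.92%, 1.45% and 1.68% in HFD and at 0.993%, 1.30%, 1.27% and 0.910% in CF. Every HFD library was above every CF library in both, by 1.30-fold in the means for Chil3 and 1.496-fold for Fcnb. These were 2 of 9 members, against 0.417% of all genes tested and 1.39% of the 791 genes whose log2 CPM had r over 0.9 with the members' mean. No test was made of the ratios, which were looked at after the levels were known, and the ratio of Chil3 carries the shared stretches noted above. Chil4, its paralog, had 77.2 CPM in HFD replicate 1, 2.52 to 13.3 CPM in the other HFD libraries and 4.16 to 18.5 CPM in CF. Left out in turn, each library gave 2 or 3 such members, Chil3 and Fcnb with, in some cases, Camp or Ltf. Ratios that do not overlap cannot come to overlap when a library is left out, so the count could not fall below 2. The ratio of Camp was 13.4% ± 1.41 in HFD and 11.002% ± 0.862 in CF (SD, n = 4), and that of Ltf was 31.5% ± 3.44 and 27.5% ± 3.81, with overlap in both.

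**Figure D3:**
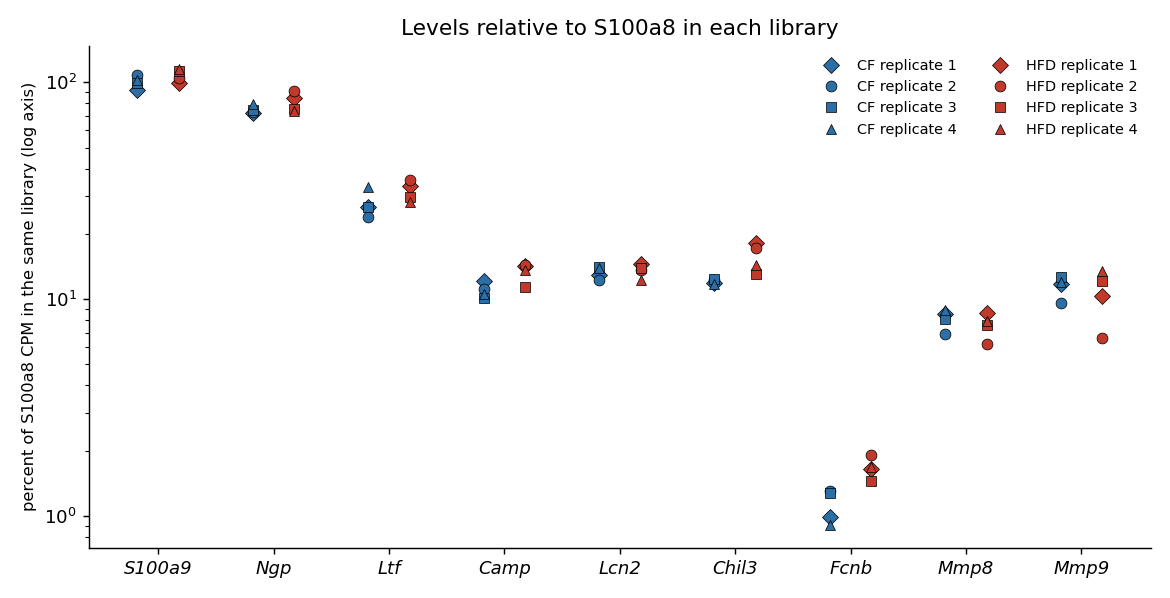
CPM of each other member as a percent of S100a8 CPM in the same library, on a log axis, with CF in blue, HFD in red and a marker shape for each replicate number. The HFD points of Chil3 (13.1% to 18.2%) and Fcnb (1.45% to 1.92%) lie above all CF points, while the points of the other 7 genes overlap between the diets.

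The diet comparison did not separate the members. In edgeR's quasi-likelihood test on all genes, 0 of 10 members were called at an adjusted p under 0.05, where 0.423% of the 15837 genes tested were called, all of them lower in HFD. At an unadjusted p under 0.05 the count was again 0 of 10, against 8.56% of all genes. The log2 fold change of HFD over CF ran from 0.09 (Mmp9) to 0.82 (Chil3), with a median of 0.41 against 0.05 over all genes tested. For S100a8 it was 0.27 (SE 0.92, edgeR adjusted p = 0.98), from means of 1657 ± 2350 CPM in HFD and 1373 ± 565 CPM in CF (SD, n = 4). For Ngp it was 0.45 (SE 0.95, edgeR adjusted p = 0.96), and for Chil3 0.82 (SE 0.99, edgeR adjusted p = 0.91). The SEs exceeded the fold changes in all 10 members, and CPM overlapped between the diets in 10 of 10, where the diets did not overlap in 6.16% of all genes. DESeq2 called 0 of 10 (3.58% of all genes) and gave no p for S100a8, Lcn2, Mmp8 and Mmp9, and limma voom called 0 of 10 (0.442% of all genes).

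The sign of the difference depended on the scale of the mean. The arithmetic mean was higher in HFD for all 10 members, while the geometric mean was higher in CF for all 10, by 1.06-fold (Fcnb) to 1.77-fold (Mmp9). The median was also higher in CF for all 10, by 1.58-fold (Fcnb) to 3.55-fold (Mmp9). In limma voom, which averages on the log2 scale, the log2 fold change was negative for 10 of 10 members, with a median of -0.54 and an adjusted p of 0.89 for S100a8. With library size in place of TMM, the median log2 fold change over all genes moved from 0.05 to 0.25 and that of the members from 0.41 to 0.50, with all 10 still above 0 in edgeR.

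The positive sign in edgeR rested on HFD replicate 1. Without it the log2 fold change was negative for all 10 members, from -0.87 (Fcnb) to -1.82 (Mmp9). S100a8, S100a9, Lcn2, Mmp8 and Mmp9 then had an unadjusted p under 0.05 with lower levels in HFD, 5 of 10 against 9.76% of all genes, and 0 of 10 were called after adjustment (1.26% of all genes, edgeR). Mmp9 came closest, with a log2 fold change of -1.82 (SE 0.41, edgeR adjusted p = 0.086). HFD replicate 1 was known to be the highest library for all 10 members. Leaving it out moves their fold changes down by construction, so these counts give no support for a lower level in HFD. Without CF replicate 1 instead, S100a9 stood at -0.03 and Mmp9 at -0.17, and the other 8 remained above 0.

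Without HFD replicate 1 and CF replicate 1 together, all 10 members were lower in HFD, from -1.16 (Fcnb) to -2.08 (Mmp9) on the log2 scale. Mmp8 (-1.97, SE 0.37, edgeR adjusted p = 0.047) and Mmp9 (-2.08, SE 0.22, edgeR adjusted p = 0.0064) were called lower, 2 of 10 members against 2.21% of all genes called lower. Over the edgeR and limma alternatives, adjusted p ran from 0.047 to 1.00 for Mmp8, from 0.0064 to 1.00 for Mmp9 and from 0.10 to 1.00 for S100a8. At an unadjusted p under 0.05, 9 of 10 were lower, all but Fcnb, against 10.6% of all genes. These 2 libraries were chosen with the values known, one as the highest of HFD and the other as the lowest of CF, and leaving them out moves the fold change of the members down by construction. The values therefore describe the remaining 6 libraries and give no support for a lower level in HFD.

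**Figure D4:**
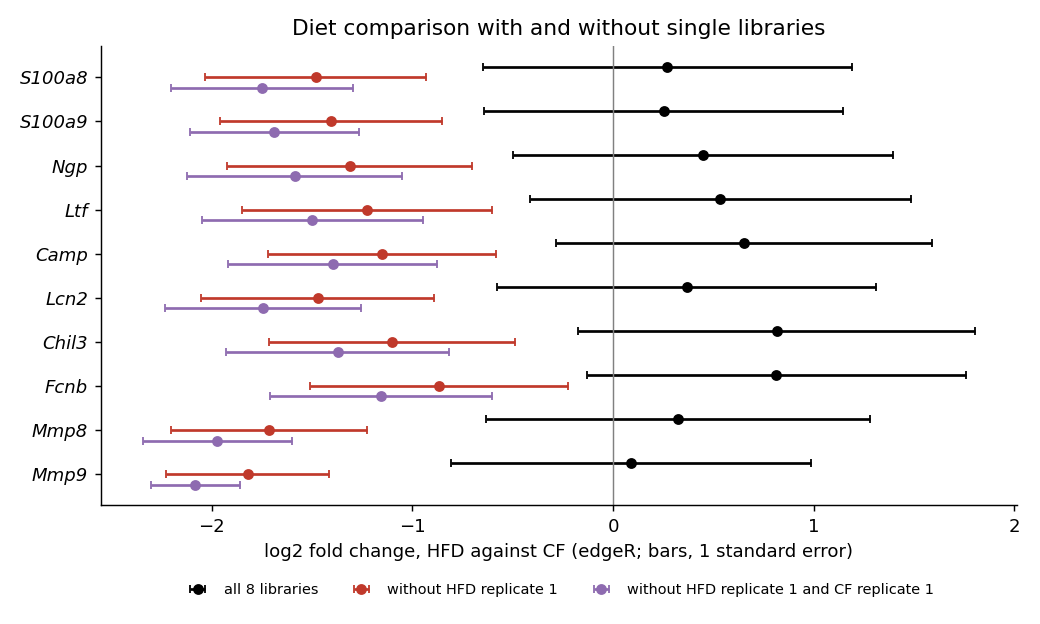
Log2 fold change of HFD over CF for each member from edgeR, with bars of 1 SE, for all 8 libraries (black), without HFD replicate 1 (red) and without HFD replicate 1 and CF replicate 1 (purple). With all libraries the values lie between 0.09 and 0.82 with bars that cross 0, and without HFD replicate 1 they lie between -0.87 and -1.82.

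Related genes were followed in lists of the granule waves and of the members' partners, 86 genes in all, of which edgeR, DESeq2 and limma voom each called 0 with all libraries. At an unadjusted p under 0.05 the count was 0 in edgeR, and without HFD replicate 1 it was 48, all lower in HFD, with 0 called (1.26% of all genes). Lower levels in HFD at such a p were then seen in 9.76% of all genes. Most of the related genes were highest in HFD replicate 1, so leaving it out lowers their fold changes by construction. This limit holds for the counts without that library in each list below. Of 20 other granule and maturation genes, 20 were highest in HFD replicate 1 and 20 had r over 0.9 with the members' mean, against 5.00% of all genes. They showed a median log2 fold change of 0.42, with 0 called and 0 at an unadjusted p under 0.05 in edgeR. With that library left out the median was -1.39 with 16 of 20 at such a p, and 20 still had r over 0.9, against 3.49% of all genes. Lyz2, which encodes lysozyme, had 1709 CPM in HFD replicate 1, 98.0 to 311 CPM in the other HFD libraries and 202 to 613 CPM in CF. Wfdc21, an antiprotease-like secreted protein gene, had 85.8 CPM in HFD replicate 1, 2.82 to 9.82 CPM in the others of HFD and 8.24 to 22.4 CPM in CF. Anxa1, which encodes the pro-resolving protein annexin A1, and Olfm4, a secondary granule gene of a neutrophil subset, headed the list by p, at 0.51 (SE 0.78) and 0.66 (SE 1.00) on the log2 scale, with an edgeR adjusted p of 0.93 for both.

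Primary granule genes gave a mixed picture. Of 11 tested, 9 were highest in HFD replicate 1 and 5 had r over 0.9, and their SD within a diet had a median of 0.59 against 1.56 in the members. Mpo, which encodes myeloperoxidase, had 717, 267, 187 and 154 CPM in HFD and 235, 468, 476 and 321 CPM in CF, a narrower range than any member had. Plac8 went the other way, with 144 CPM in HFD replicate 1, 244 to 346 CPM in the other HFD libraries and 233 to 289 CPM in CF (r = -0.84). Serpinb1a, an inhibitor of the granule proteases, and Srgn, the granule proteoglycan serglycin, had log2 fold changes of 0.41 (SE 0.36) and 0.22 (SE 0.25), with edgeR adjusted p of 0.85 and 0.90. None of the 11 was called, and 0 had an unadjusted p under 0.05. When HFD replicate 1 was left out, 4 had such a p with lower levels in HFD, against 9.76% of all genes. Mpo was among them (-0.89, SE 0.29, edgeR adjusted p = 0.19). The list's median was then -0.56, and 4 had r over 0.9. In log2 CPM, HFD replicate 1 exceeded the median of the other 7 libraries by a median of 0.99 for primary granule genes, 2.56 for the members, 2.61 for the other granule genes and 2.45 for genes of mature blood neutrophils.

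Genes of mature blood neutrophils split. Of 20, 17 were highest in HFD replicate 1 and 15 had r over 0.9, and their median log2 fold change was -0.14, with 0 called and 0 at an unadjusted p under 0.05 in edgeR. The median without that library was -1.81, with 0 called, and 14 had r over 0.9. At such a p 18 of 20 were then lower in HFD, against 9.76% of all genes. As 17 of the 20 were highest in the library left out, this too follows in part from its choice. Retnlg, a resistin-like gene of blood neutrophils, had 490.0 CPM in HFD replicate 1, 24.9 to 55.6 CPM in the other HFD libraries and 52.6 to 162 CPM in CF. Il1b, the inflammatory cytokine, was highest in CF replicate 3 with 41.6 CPM and had 23.6, 2.93, 3.91 and 1.97 CPM in HFD (log2 fold change -1.80, SE 0.87, edgeR adjusted p = 0.66). Cxcl2, a neutrophil chemokine at up to 4.79 CPM, had a log2 fold change of -2.06 (SE 1.18, edgeR adjusted p = 0.75), and Alox5ap, of leukotriene synthesis, -0.16 (SE 0.22, edgeR adjusted p = 0.93). Relative to S100a8, the ratios of 2 genes did not overlap between the diets. Cxcr2, the receptor for neutrophil release into blood, stood at 2.81% ± 0.577 of S100a8 in HFD and 4.19% ± 0.667 in CF, and Hdc, which makes histamine, at 1.59% ± 0.325 and 2.56% ± 0.619 (SD, n = 4). These were 2 of 20, against 0.12% of all genes and 1.14% of the 791 genes with r over 0.9, named after their values were seen and not tested. Without HFD replicate 3 the count was 4, with Il1b and Cxcl2 added, and without any other library it was 2 or 3. Leaving out a library can only keep or raise this count, so it could not fall below 2.

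Among 10 granulocyte transcription factors, 7 were highest in HFD replicate 1 and 0 were called, with 0 at an unadjusted p under 0.05 in edgeR. In the 7 libraries without HFD replicate 1, 5 of 10 had such a p with lower levels in HFD, against 9.76% of all genes. The list's median was then -0.42, with 0 called. Klf5, a zinc finger factor, had 14.5 CPM in HFD replicate 1 and 1.24 to 5.20 CPM in the other 7 libraries, with r = 1.00 with the members' mean. Cebpe, which encodes C/EBP epsilon and is named outside the rule for its role in secondary granules, had 30.6 CPM in HFD replicate 1, 1.55 to 4.85 CPM in the other HFD libraries and 3.72 to 9.41 CPM in CF (r = 0.99). Spi1, which encodes PU.1 and is shared with DCs and monocytes, had 37.7 to 72.3 CPM (r = 0.84). Cebpb, a factor of emergency granulopoiesis, had 50.9, 12.5, 6.09 and 11.7 CPM in HFD and 13.5, 31.7, 40.7 and 25.7 CPM in CF. Cebpa and Gfi1, which act earlier in the lineage, headed the list by p, at -0.37 (SE 0.25) and 0.40 (SE 0.48) on the log2 scale, with edgeR adjusted p of 0.80 and 0.91. The r of Klf5 and Cebpe was thus above that of Spi1 and of Cebpa (r = 0.66), and without HFD replicate 1 it was 0.99 and 0.98 against 0.71 and 0.68.

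The 5 protein-coding genes outside the members with the highest r with their mean log2 CPM were Cd177, Itgb2l, Rflnb, Mgst1 and Klf5, each with r of 1.00 over the 8 libraries and, without HFD replicate 1, 0.99 to 1.00. Cd177, a neutrophil surface protein, had 322, 45.9, 16.9 and 12.3 CPM in HFD and 26.6, 78.2, 77.9 and 79.6 CPM in CF. Rflnb, a filamin regulator and the closest gene that was in no list, had 83.3, 17.6, 7.92 and 5.07 CPM in HFD and 10.2, 27.5, 29.0 and 27.4 CPM in CF. Itgb2l, an integrin beta chain of neutrophils, had 113 CPM in HFD replicate 1 and 4.71 CPM in HFD replicate 4, and Mgst1, a microsomal glutathione transferase, 41.2 and 2.91 CPM.

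The partners of the secreted members were low or moderate in these libraries, and none was called. Of 9 receptors tested, 7 were highest in HFD replicate 1, with 0 at an unadjusted p under 0.05 in edgeR. Without that library 3 had such a p, all lower in HFD, against 9.76% of all genes. Cd33, a sialic acid receptor reported to bind S100A9, had 217 CPM in HFD replicate 1, 43.1 to 69.1 CPM in the other HFD libraries and 50.3 to 110 CPM in CF. Bsg, a receptor of S100A9 as well, was also highest in HFD replicate 1, with 51.5 CPM there and 36.4 to 47.1 CPM in the other 7 (r = 0.31). Ager, which encodes RAGE, had the lowest p, with 0.289 to 2.34 CPM in HFD and 0.346 to 0.650 CPM in CF (log2 fold change 0.88, SE 0.63, edgeR adjusted p = 0.81). Among 5 inhibitors and activators of the metalloproteinases, 5 were highest in HFD replicate 1 and 0 were called, with 0 at an unadjusted p under 0.05 and 1, Timp2, without that library. Timp2, a tissue inhibitor of metalloproteinases, had 31.1 CPM in HFD replicate 1 and 4.90 to 12.5 CPM in the other 7. Plau, the urokinase activator, had 11.01 CPM there and 2.18 to 6.33 CPM in the other 7. Timp3 and Mmp14 headed the list by p, at 1.55 (SE 0.96) and 1.26 (SE 0.68) on the log2 scale, with edgeR adjusted p of 0.78 and 0.73.

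Paralogs of the members differed among themselves. Of 10 tested, 6 were highest in HFD replicate 1 and 4 had r over 0.9, and 0 were called, with 0 at an unadjusted p under 0.05 and 2, both lower in HFD, without that library. S100a11, a calcium-binding relative of S100a8, had 215, 80.1, 61.2 and 68.4 CPM in HFD and 61.8, 132, 119 and 104 CPM in CF (r = 0.95). S100a4, another relative, was highest in CF replicate 2 with 31.0 CPM and had 16.6 CPM in HFD replicate 1 (log2 fold change -0.45, SE 0.33, edgeR adjusted p = 0.81). Trf, which encodes transferrin, the plasma relative of lactoferrin, had 19.6 to 24.5 CPM in HFD and 19.8 to 30.5 CPM in CF (r = -0.28). Of the iron-binding relatives, Ltf ranged over 25.0-fold between libraries, and Trf showed no peak in HFD replicate 1. Among the related genes for which a positive log2 fold change was printed, the sign turned without HFD replicate 1 in Anxa1 (-1.004), Olfm4 (-1.18), Serpinb1a (-0.14), Srgn (-0.02), Gfi1 (-0.30), Ager (-0.03) and Timp3 (-0.14), and Mmp14 stayed above 0 at 0.71.

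Markers of other cells moved with the members in part, and their part in these results was not tested. Erythroid markers were highest in HFD replicate 1 in 11 of 11, with a summed level of 899 CPM in it, 135 to 208 CPM in the other HFD libraries and 125 to 211 CPM in CF. Of these, the globin genes Hbb-bt and Hbb-bs had 79.4 and 76.3 CPM in HFD replicate 1, where other genes of the list had more. Megakaryocyte and platelet markers, led by Ppbp, were highest there in 6 of 6, with 78.6 CPM against 2.30 to 19.5 CPM in the other 7. Eosinophil, basophil and mast cell markers, led by Mcpt8 and Prg2, were highest there in 9 of 10, with 98.2 CPM against 8.88 to 54.0 CPM. Macrophage markers, led by Slc40a1 and Adgre1, were highest there in 6 of 7, with 144 CPM against 10.5 to 62.5 CPM. B cell markers, led by Ighm and Igkc, were highest there in 5 of 11, with 1314 CPM against 326 to 667 CPM. In CF replicate 1, the lowest CF library for the members, macrophage markers summed to 15.5 CPM against 35.2 to 62.5 CPM in the other CF libraries, and erythroid markers to 125 CPM against 155 to 211 CPM. Eosinophil, basophil and mast cell markers stood at 16.1 CPM against 30.6 to 54.0 CPM, megakaryocyte and platelet markers at 2.30 CPM against 3.47 to 10.7 CPM, and monocyte markers at 629 CPM against 709 to 1022 CPM. All 5 lists were thus lowest of CF in that library, as the members were, while B cell markers were highest of CF there, at 561 CPM against 326 to 454 CPM.

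Most markers of monocytes and DCs were not highest in HFD replicate 1. Monocyte markers, led by Ms4a6c and Ly6c2, were highest in HFD replicate 1 in 3 of 10, with sums of 360.2 to 872 CPM in HFD and 629 to 1022 CPM in CF. Conventional DC markers, led by Cd74 and H2-Aa, were highest there in 0 of 8, with 222 CPM in it, 422 to 566 CPM in the other HFD libraries and 587 to 1065 CPM in CF. Plasmacytoid DC markers, led by Ly6d and Bst2, were highest there in 0 of 6, with 99.7 CPM against 216 to 353 CPM in the other HFD libraries and 83.2 to 128 CPM in CF. T and NK cell markers, led by Klrd1 and Trbc2, were highest in HFD replicate 1 in 3 of 5. They summed to 13.6 to 19.6 CPM in HFD and 8.55 to 10.8 CPM in CF. These low sums did not overlap between the diets, which held for 6.16% of all single genes and was not tested. Their r with the members' mean was -0.85 for Klrd1, -0.81 for Cd8a, 0.35 for Il2rb, 0.83 for Trbc2 and 0.85 for Cd3d. Irf8, a factor of the DC lineage that the sort did not use, was the highest per kb in the list of DC progenitor and sort markers. It had 251 CPM in HFD replicate 1, 509 to 674 CPM in the other HFD libraries and 372 to 432 CPM in CF. Its r with the members' mean was -0.89 (-0.78 without HFD replicate 1). Of the 8 DC progenitor and sort markers, 4 were lowest in HFD replicate 1, Irf8 and Flt3 among them, while Kit and Csf1r were not.

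**Figure D5:**
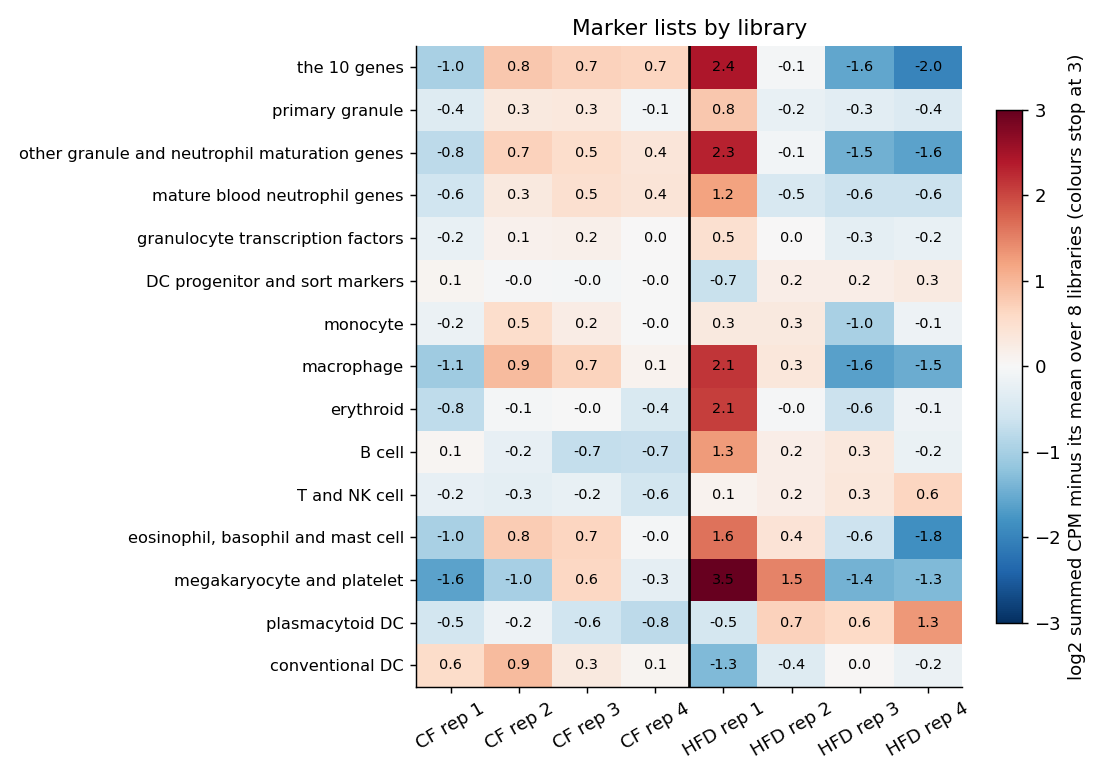
Summed CPM of each list in each library, as log2 minus the mean log2 over the 8 libraries, with the value written in each field. The row of the 10 genes runs from 2.4 in HFD replicate 1 to -2.0 in HFD replicate 4 and reads -1.0 in CF replicate 1, and the rows of erythroid and of megakaryocyte and platelet markers are also highest in HFD replicate 1, while the rows of DC progenitor and conventional DC markers are lowest there.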

How the data were processed

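The authors deposited a table of raw read counts with a column for each of 8 libraries of CDP RNA, 4 per diet. By the methods and the submitters' processing notes, libraries were amplified with NuGEN Ovation Solo with depletion of rRNA, read as 75 bp pairs, aligned with HISAT2 to GRCm38 and counted by StringTie on GENCODE comprehensive genes from uniquely mapped pairs. The release, the strandedness of counting and any filter are not given in the sources used here, and no gene had a highest count under 29. Columns were matched to samples by the S numbers in the titles.

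GENCODE vM21 gave names, coordinates and exon lengths for 16067 of 16119 identifiers, and RefSeq (GRCm38.p6) the promoters. The count test was edgeR 4.0.16 in R 4.3.3: filterByExpr kept 15837 genes, TMM scaled the libraries, and a robust quasi-likelihood fit with diet as the only term, in place of the study's own tool, was adjusted by Benjamini-Hochberg over all genes tested. Log2 CPM used a prior count of 2. Other settings tried were DESeq2 1.42.0, voom of limma 3.58.1 (plain or with quality weights), scaling by RLE or by library size alone, no filter, 1 CPM in 4 libraries, protein-coding genes alone, a replicate block, a prior count of 0.5, CPM not divided by length, and libraries left out, the last for the ratios to S100a8 and for r chosen after seeing the data. Figures were drawn in Python 3.11.15 with matplotlib 3.10.9.

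The members and lists were chosen with earlier results of these data known. Genes named are the members, the 2 lowest p and up to 2 highest mean CPM per kb of each list, the 5 protein-coding genes most correlated with the members' mean and the highest of these in no list, and the leading markers of other cell types. Chil4, Cebpe, Cxcr2, Hdc and Kit were named after their values were seen. Transcript-level values and other assays of the study were not analysed here.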

Additional observations from a re-analysis of the deposited data

Results flagged for a closer look

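CF replicate 1 lay far below the other CF libraries in 9 of the 10 members, all but Fcnb, by a gap that took up nearly the whole range of the 4 CF libraries and passed Dixon's critical value. In log2 CPM, S100a8 stood at 9.07 in CF replicate 1 against 10.59 to 10.80 in the others, S100a9 at 8.96 against 10.63 to 10.90, and Ngp at 8.602 against 10.25 to 10.35. Ltf stood at 7.16 against 8.74 to 8.99, Camp at 6.03 against 7.35 to 7.62, and Lcn2 at 6.13 against 7.75 to 7.85. Chil3 stood at 6.00 against 7.51 to 7.77, Mmp8 at 5.52 against 6.93 to 7.10, and Mmp9 at 5.99 against 7.41 to 7.70. That library also had the lowest share of counts in protein-coding genes, 28.3% against 33.9% to 42.0% in the other 7, and the part of this in its levels was not tested. The members' mean log2 CPM stood at 6.59 against 8.15 to 8.28. In all, 10 of 40 groups of 4 values stood out in this way, where chance alone gives about 1 in 20, and since the members share their libraries these are not independent. HFD replicate 1 did not stand out by this measure, because the HFD libraries were spread over their whole range.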

How the results depend on the processing

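The count of called members stayed at 0 in every alternative except without HFD replicate 1 and CF replicate 1 together, where it was 2, and the companion genes called went from 0 to 19, all lower in HFD, where 2.21% of all genes were called lower. The members' median log2 fold change, 0.41 with all libraries, was 0.36 to 0.50 with RLE factors, library size alone, DESeq2, either filter and protein-coding genes alone, and all 10 members stayed above 0 there. It was -0.54 in limma voom, -1.22 with quality weights, -0.94 with the replicate block and -1.64 without HFD replicate 1 and CF replicate 1 together, and it ran from -1.36 (without HFD replicate 1) to 0.75 with single libraries left out. In all, 52 of 180 member values changed sign, and the cause was not tested beyond the libraries left out. In limma voom the log2 fold changes of S100a8, S100a9, Ngp, Ltf, Camp, Lcn2, Chil3, Fcnb, Mmp8 and Mmp9 were, in this order, -0.65, -0.55, -0.53, -0.45, -0.37, -0.63, -0.28, -0.14, -0.78 and -0.82. With quality weights they were -1.33, -1.22, -1.21, -1.10, -1.06, -1.34, -1.03, -0.90, -1.50 and -1.57. Without HFD replicate 1 and CF replicate 1 together they were -1.75, -1.69, -1.59, -1.50, -1.40, -1.74, -1.37, -1.16, -1.97 and -2.08. With single libraries left out, S100a8 ran from -1.48 to 0.61, S100a9 from -1.41 to 0.58, Ngp from -1.31 to 0.80, Ltf from -1.23 to 0.88, Camp from -1.15 to 1.01, Lcn2 from -1.47 to 0.71, Chil3 from -1.10 to 1.18, Fcnb from -0.87 to 1.17, Mmp8 from -1.72 to 0.67 and Mmp9 from -1.82 to 0.41, lowest without HFD replicate 1 and highest without HFD replicate 3 in each.

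The labels number the replicates 1 to 4 in both diets but do not say that a number marks a shared batch. Deviations of same-numbered libraries from their diet means correlated with r of -0.44, -0.08, -0.23 and -0.18, against -0.19 to 0.36 for other pairs. With 4 such pairs these values cannot show whether a number marks a shared batch. With the replicate block, 0 members and 0 genes in all were called by edgeR (0 members and 911 genes at an unadjusted p under 0.05), and the members stood at -1.04, -0.95, -0.93, -0.82, -0.74, -1.03, -0.72, -0.46, -1.16 and -1.20 in the order above.

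The members' median SD within a diet was 1.55 to 1.58 under other scalings, filters and prior counts and 0.91 (without HFD replicate 1) to 1.71 with single libraries left out. The share of S100a8 in the members' RNA was 31.8% per kb and 27.0% as plain CPM. The count of all genes called, 67, was 68 with RLE factors, 108 with library size alone, 567 in DESeq2, 70 in limma voom, 282 with quality weights, 67 without a filter, 76 with 1 CPM in 4 libraries and 0 with protein-coding genes alone. It was 200 without HFD replicate 1, 388 without CF replicate 1 as well, 154 without CF replicate 4, and between 0 and 2 without any other single library. With 4 libraries per diet and a spread this wide, a change of the members by diet could not be told from the spread between replicates. Depth was no limit for the members, whose counts were 170 to 160622.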
